A study of Mus musculus with 12 samples.

Results

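The hair germ and the bulge, neighbouring epithelial compartments of the resting hair follicle, were compared on 6 of the 12 arrays of the series, which were the 3 hair germ (HG) and the 3 bulge arrays from mice whose follicle stem cells the labels call quiescent or aberrantly quiescent. All cells were sorted from back skin of female mice aged 72 to 74 days, on a mixed C57BL/6 and CD1 background, around the second change from telogen, the resting phase, to anagen, the growth phase of the hair cycle. The 3 conditions were Het set 1 and cKO set 1, both called quiescent, and cKO set 2, called aberrantly quiescent, where Het and cKO name the genotype at Tgfbr2, the type II TGF-beta receptor gene. Every sort used a Rosa26-YFP reporter with antibodies to P-cadherin and CD34. The sources used here do not give the Cre driver, nor whether the HG and bulge cells of a condition came from the same mice. Each condition gave 1 array per fraction, so the p-values measure how the HG minus bulge difference varied between the 3 conditions. That spread mixes genotype and set with array noise, and it may be technical. It has 2 residual degrees of freedom, and each gene's variance was moderated with that of the other genes (11.86 prior degrees of freedom). The HG and bulge arrays of Het set 2, which the labels call activated, stayed outside the comparison and were set beside it at the end.

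The bulge holds slow-cycling stem cells that persist from one hair cycle to the next. The hair germ lies below the bulge, next to the dermal papilla, a cluster of specialised fibroblasts that sends growth signals to the epithelium, and it is the compartment that divides first when a new cycle starts. Wnt signals promote that start, bone morphogenetic protein (BMP) signals hold the stem cells at rest, and Sonic hedgehog is made by the growing germ.

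Values are log2 signal, and each difference is HG minus bulge on the log2 scale, so that 1 is 2-fold and a minus sign means lower in HG. The values of a gene are given in the order Het set 1, cKO set 1 and cKO set 2. "Rose" and "fell" are used for genes higher or lower in HG with an adjusted p under 0.05 (limma with the condition as a block, Benjamini-Hochberg over all genes tested). Signals under 20.7 were set to that floor (4.37 on the log2 scale), and a difference from a value at the floor is a lower bound. A gene entered the test if it passed 84.7 on at least 2 arrays. In bulk fractions, fewer cells of a type and less RNA per cell cannot be told apart.

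The sort markers differed in the direction of their sort. Cdh3, which encodes P-cadherin, had 9.42, 9.74 and 9.22 in HG and 8.60, 8.31 and 8.02 in bulge. It was higher in HG in all 3 pairs, by 1.15 (SE 0.21, adjusted p = 9.69e-04), and the fractions did not overlap. Cd34 had 8.69, 8.40 and 8.21 in HG and 14.60, 14.42 and 14.50 in bulge, a difference of -6.07 (SE 0.15, adjusted p = 8.17e-12). Both genes' proteins were used to sort the cells, so these differences describe the sort. Median signal of the 6 arrays lay between 83.0 and 109. Across all genes the log2 signals of HG arrays correlated with each other at 0.956 to 0.966, those of bulge arrays at 0.951 to 0.956, and HG with bulge arrays at 0.887 to 0.904.

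HG and bulge differed at a large share of genes, and the largest differences were falls. Of 12392 genes tested, 1325 (10.7%) rose and 1482 (12%) fell, which makes 2807 (22.7%) in either direction. Of these, 2788 had the same sign in all 3 pairs, and 2529 had HG and bulge values that did not overlap. The same pairs gave the calls, so both counts are high in large part by selection. At least 2-fold differences were found for 599 of the genes that rose and 869 of those that fell. Past 8-fold there were 11 rises and 107 falls, and past 16-fold 1 rise and 23 falls. The median difference over all tested genes was 0.0077, close to 0. Without the filter on low signal the counts dropped to 43 risen and 103 fallen, and without the cKO set 1 pair the risen genes numbered 857.

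**Figure D1:**
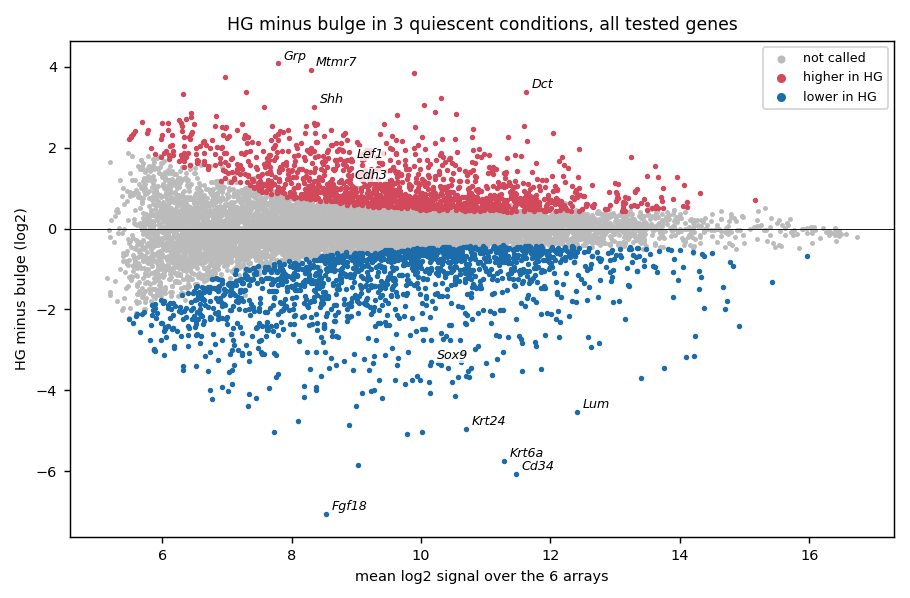
The horizontal axis is each tested gene's mean log2 signal over the 6 arrays and the vertical axis its HG minus bulge difference on the log2 scale. Red points are the 1325 genes that rose, blue points the 1482 that fell and grey points the others, and the falls of Fgf18, Cd34 and Krt6a reach further from 0 than any rise.

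Among the 12 largest rises, several encode secreted or surface proteins. Grp, the gene of gastrin-releasing peptide, a neuropeptide-like growth factor, had 10.25, 8.87 and 10.37 in HG and 7.11, 5.37 and 4.74 in bulge, a rise of 4.09 (SE 0.40, adjusted p = 4.55e-06). Shh, the Sonic hedgehog ligand, had 9.84, 9.75 and 9.97 in HG and 5.37, 6.76 and 8.41 in bulge, a rise of 3.01 (SE 0.39, adjusted p = 5.63e-05). The HG arrays were nearly level for Shh, and the spread lay in bulge, with cKO set 2 the highest. Scube3, a secreted protein of the family that helps release hedgehog ligands, rose by 3.34 with 2 bulge arrays at the floor. Fras1, an extracellular matrix protein of the epithelial basement membrane zone, rose by 3.01 and Cldn10, a tight junction claudin, by 2.89. Slc38a4, an amino acid transporter, rose by 3.24 and Ptgds, a prostaglandin D synthase, by 3.07. Sgo1, shugoshin, which protects the cohesion of sister chromatids, rose by 3.76, again with 2 bulge arrays at the floor. The rest of the 12 were Mtmr7, a myotubularin-related phosphatase (3.92), Atp6v1b1, a subunit of the vacuolar proton pump (3.37), and the pigment enzymes Tyrp1 (3.84) and Dct (3.39), which belong to melanocytes.

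The 12 largest falls, with the sort marker Cd34 left out, were led by Fgf18, a fibroblast growth factor of the resting bulge. Its bulge values were 12.32, 11.57 and 12.28, against 5.50, 4.37 and 5.13 in HG with 1 array at the floor, a difference of -7.06 (SE 0.22, adjusted p = 8.31e-11). Krt6a, a keratin of the follicle's inner bulge layer and companion layer, had 13.94, 13.84 and 14.67 in bulge and 8.19, 7.70 and 9.34 in HG, a difference of -5.74 (SE 0.17, adjusted p = 5.24e-11). Both separated the fractions widely on every array. Krt24, a bulge keratin, fell by 4.95, Wfdc3, a small secreted protein with a whey acidic domain, by 5.08 and Angptl7, an angiopoietin-like secreted protein, by 5.02. Chat, choline acetyltransferase, fell by 5.02, Gfra1, the co-receptor for glial cell line-derived neurotrophic factor, by 4.85, and Cyp26b1, which breaks down retinoic acid, by 4.38. Ppp1r3c, a glycogen-targeting subunit of protein phosphatase, fell by 5.84 and Pdlim3, a PDZ and LIM domain protein, by 4.75, each with 1 HG array at the floor. Another probe set of Ppp1r3c gave -1.62. Pdzrn4 fell by 4.40. The twelfth, Lum, encodes lumican, a proteoglycan made by fibroblasts, and fell by 4.52.

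Genes that mark the bulge were lower in HG. Of 26 tested bulge stem cell genes, 21 fell, none rose and the median difference was -1.90, where 12% of all tested genes fell. As with all lists here, its genes were chosen with earlier results of these data known, so the count is a description and no independent support. Fgf18, Krt24, Wfdc3 and Angptl7 of the largest falls are members. Sox9, a transcription factor needed to keep bulge stem cells, had 12.11, 11.55 and 11.78 in bulge and 8.34, 8.21 and 8.97 in HG, a difference of -3.31 (SE 0.19, adjusted p = 1.44e-08). Nfatc1, which restrains division in the bulge, fell by 2.75, Foxc1 by 2.33, Lhx2 by 1.82 and Tbx1 by 1.70. All of these transcription factors had HG values below every bulge value. The secreted Wnt inhibitors Sfrp1 and Dkk3 fell by 2.67 and 2.10. Not every gene used for the bulge separated the fractions. Krt15, a keratin often used to mark the bulge, had 15.70, 15.86 and 16.03 in HG and 16.07, 16.45 and 16.16 in bulge, a difference of -0.37 (adjusted p = 0.277). Lgr5, an R-spondin receptor of lower bulge and germ cells, differed by -0.21 (adjusted p = 0.383), and Nfix, Col17a1 and Eps8 also missed the threshold. Without the filter on low signal 10 of the 27 bulge genes were called.

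A wider list of stem cell and hair transcription factors moved in both directions. Of 41 tested, 9 rose and 16 fell, beside 10.7% and 12% of all tested genes. The rises held 4 genes of the Sox family. Sox5 had 7.85, 6.91 and 8.08 in HG and 4.37, 4.97 and 6.48 in bulge, with 1 bulge array at the floor, a rise of 2.34 (SE 0.52, adjusted p = 0.0048). Sox4 rose by 1.96, Sox6 by 1.93 and Sox21 by 0.79. Hoxc13, a regulator of hair keratin genes, had 10.90, 10.84 and 11.09 in HG and 9.59, 8.98 and 9.18 in bulge, a rise of 1.70. Gata3, known from the inner root sheath, rose by 1.21 and Cux1 by 1.36. The falls included, beside the bulge factors above, Id2 and 4 Iroquois genes (Irx1, Irx3, Irx4 and Irx5), with differences from -1.72 to -1.06.

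**Figure D2:**
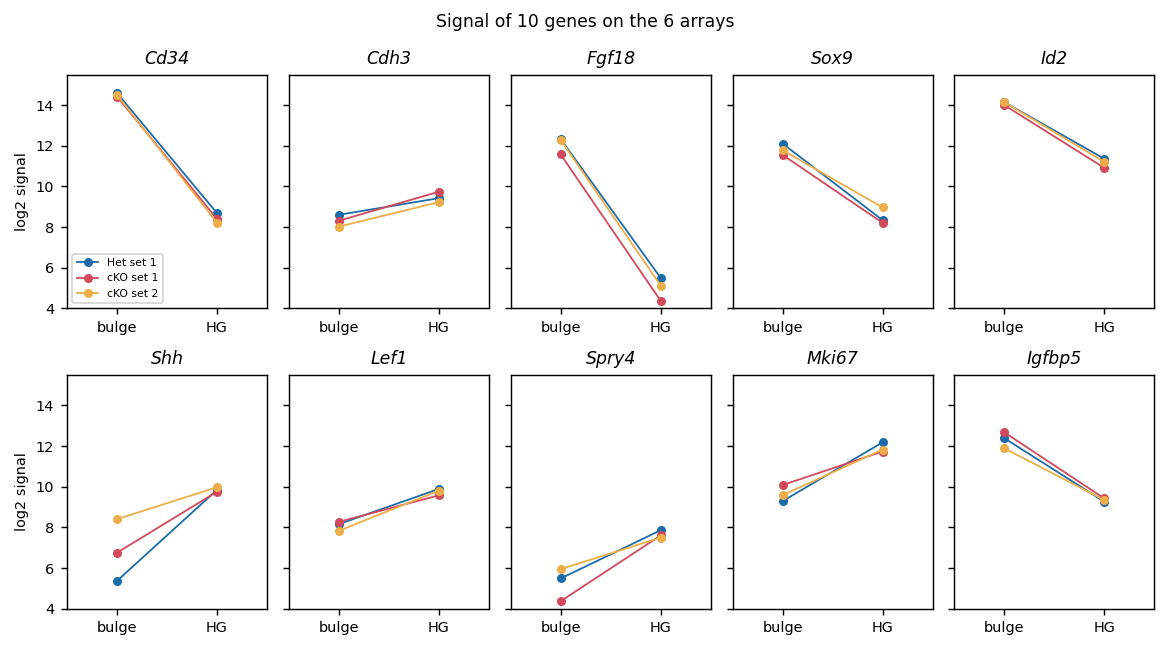
Each panel shows 1 gene's log2 signal (vertical axis) in bulge and in HG, with a line joining the arrays of 1 condition. Cd34, Fgf18, Sox9, Id2 and Igfbp5 were lower in HG in all 3 conditions, and Cdh3, Shh, Lef1, Spry4 and Mki67 were higher, with the bulge values of Shh spread from 5.37 to 8.41.

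Hair germ and early anagen genes were mostly higher in HG. Of 17 tested, 9 rose and 1 fell, with a median of 0.88, beside 10.7% and 12% of all tested genes. Apart from Shh and Hoxc13, the largest rise was that of Lef1, the Wnt-responsive transcription factor of the hair germ, with 9.89, 9.58 and 9.80 in HG and 8.16, 8.27 and 7.83 in bulge (difference 1.67, SE 0.21, adjusted p = 3.97e-05). Msx2, a homeobox gene of the hair matrix, rose by 1.47. Dlx2, another homeobox gene, was the one that fell, by 1.55, and its HG value in cKO set 2 (8.46) lay inside the range of the bulge values. Without the cKO set 1 pair Dlx2 was not called.

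Within the Hedgehog pathway the ligand and its receptor were higher in HG, and a surface inhibitor and the co-receptors were lower. Of 11 tested ligands, receptors and co-receptors, 3 rose and 5 fell, beside 10.7% and 12% of all tested genes. The list's median was -0.68. Beside Shh and Scube3, the rise was that of Ptch1, the receptor, which is also induced by the pathway, with 11.96, 11.95 and 12.63 in HG and 11.07, 11.37 and 11.14 in bulge (difference 0.99, SE 0.17, adjusted p = 7.84e-04). Hhip, a surface inhibitor that binds the ligand, had 5.21, 5.83 and 4.66 in HG and 8.76, 8.51 and 8.18 in bulge, a difference of -3.25. Hhip is also on the list of dermal papilla markers, and the part of dermal cells in its fall was not tested. Scube2, related to Scube3, fell by 1.59, and the ligand-binding co-receptors Gas1, Cdon and Boc fell by 1.41, 1.20 and 0.68. Among 9 mediators and targets, of which Ptch1 and Hhip are members again, 3 rose and 1 fell. Gli1, the transcription factor that the pathway induces, rose by 0.82, with 9.27, 9.15 and 9.18 in HG and 9.04, 8.43 and 7.65 in bulge. Mycn, a growth-promoting transcription factor, rose by 2.12 on the probe set used, while another probe set of the gene gave -1.38, so its direction is uncertain. When all probe sets of a gene were averaged, the risen genes of these lists numbered 1 and 0.

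Wnt ligands rose in HG and most frizzled receptors fell. Of 11 tested Wnt ligand genes, 6 rose and none fell, beside 10.7% and 12% of all tested genes. The list's median was 1.12 (0.58 with the floor at the pooled median). Wnt3 had 8.16, 8.46 and 7.15 in HG and 6.34, 6.75 and 5.09 in bulge, a rise of 1.86 (SE 0.38, adjusted p = 0.00236). Wnt3a rose by 1.70, Wnt6 by 1.22, Wnt5a by 1.16, Wnt10a by 1.12 and Wnt4 by 0.58. The first 5 of these were higher in HG without overlap. Of 18 receptors, 8 fell and 2 rose. Fzd2 had 9.09, 8.96 and 9.07 in HG and 11.62, 11.18 and 10.87 in bulge, a difference of -2.19, and Fzd1 fell by 1.82. Fzd9 and Fzd4 fell by 2.40 and 1.86, with 2 and 1 HG arrays at the floor. The 2 rises were Fzd10 and the R-spondin receptor Lgr6, and neither was called without the cKO set 1 pair.

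Secreted Wnt antagonists did not move one way. Of 11 tested, 3 fell (Sfrp1, Dkk3 and Sfrp4) and 1 rose, which was Wif1, the Wnt inhibitory factor, by 1.23. Among all tested genes 12% fell and 10.7% rose. Among 18 intracellular mediators and targets, 6 rose and 3 fell. Tnfrsf19, a receptor also called Troy and a Wnt target, had 12.83, 13.06 and 12.69 in HG and 10.34, 11.00 and 9.61 in bulge, a rise of 2.55 (SE 0.18, adjusted p = 1.49e-07). Axin2, the usual readout of Wnt activity, rose by 0.76 and was higher in HG on all arrays. The Tcf genes of the bulge, Tcf7l2 and Tcf7l1, fell by 1.05 and 0.80. Without the cKO set 1 pair 3 of the 6 rises were called.

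BMP ligands differed one by one. Of 6 tested, 3 rose and 2 fell, beside 10.7% and 12% of all tested genes. Bmp2 had 11.15, 11.19 and 11.58 in HG and 10.31, 9.84 and 10.21 in bulge, a rise of 1.18 (SE 0.16, adjusted p = 8.28e-05), and Bmp4 and Bmp7 rose by 1.09 and 0.97. Bmp6, a ligand made by the bulge, had 5.24, 6.20 and 4.57 in HG and 9.05, 8.40 and 9.04 in bulge, a difference of -3.49, and Gdf10 fell by 1.51. The list's median (0.41) and mean (-0.32) have opposite signs. Among 7 receptors 1 rose, Bmpr1b, by 2.62 with 1 bulge array at the floor. Of 8 BMP antagonists, which bind or block the ligands, none rose and 4 fell. Grem1, gremlin, had 7.77, 7.44 and 7.95 in HG and 11.14, 11.70 and 11.59 in bulge, a difference of -3.76 (SE 0.20, adjusted p = 7.39e-09). Fst, follistatin, fell by 1.64, Fstl1 by 1.61 and Bambi, a pseudoreceptor, by 1.28. Fibroblasts also express Grem1 and Fstl1, and fibroblast markers fell in HG (13 of 15 tested, median -3.07). Their part in these falls was not tested.

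Among BMP mediators and targets, the Id genes and inhibitory Smads were lower in HG, while Msx2 and Gata3 were higher. Of 14 mediators and targets, 8 fell and 2 rose, beside 12% and 10.7% of all tested genes. The list's median was -0.84. Id2, an inhibitor of differentiation gene, had 11.36, 10.91 and 11.20 in HG and 14.14, 13.99 and 14.14 in bulge, a difference of -2.93 (SE 0.15, adjusted p = 5.06e-09). Id1 had 11.34, 10.59 and 11.61 in HG and 12.78, 12.49 and 12.65 in bulge and fell by 1.46, while Id4 and Id3 fell by 1.34 and 0.96. The inhibitory Smads Smad6 and Smad7 fell by 1.43 and 0.80, Hey1, which is also on the Notch list, by 2.15 and the mediator Smad1 by 0.47. The rises were the targets Msx2 and Gata3, and Msx1 and Dlx3 were not called. All 4 Id genes were thus lower in HG, each in all 3 pairs.

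Of the TGF-beta pathway, latent binding proteins were lower in HG and no TGF-beta ligand was called. None of Tgfb1, Tgfb2 and Tgfb3 was called, with differences of 0.69, -0.46 and 0.56. Of 10 ligands and latent binding proteins, 3 fell and 1 rose, beside 12% and 10.7% of all tested genes. The falls were the binding proteins Ltbp2, with 8.49, 7.89 and 7.79 in HG and 11.23, 11.20 and 11.30 in bulge (difference -3.19, SE 0.19, adjusted p = 2.52e-08), Ltbp1 (-1.68) and Ltbp3 (-0.82), and the rise was Inha, the inhibin alpha chain (1.58). Tgfbr2, the targeted gene, had 11.48 in Het HG, 12.02 and 11.31 in the cKO HG arrays, 12.39 in Het bulge and 12.14 and 11.89 in the cKO bulge arrays. Where its probes lie on the transcript was not analysed here, so these values do not check the genotype labels. Of 7 receptors 4 fell, Tgfbr2 by 0.54, Tgfbr1 by 0.50, Tgfbr3 by 0.55 and Eng, endoglin, by 0.94, and none of the 4 was called without the Het set 1 pair or without the cKO set 2 pair. Of 17 mediators and targets 6 fell and 3 rose. Ccn2, connective tissue growth factor, had 13.50, 12.82 and 12.41 in HG and 15.81, 15.61 and 15.27 in bulge, a difference of -2.65, and the rises were Skil and Tgif2, both repressors of the pathway (1.18 each), and Thbs1 (0.89), of which 1 was called without the cKO set 2 pair.

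Fibroblast growth factor feedback genes were higher in HG, while the bulge ligands were lower. Of 5 FGF ligands tested, Fgf18 and Fgf1 fell (by 7.06 and 1.78) and Fgf13 rose (by 1.20), a rise not called without the cKO set 1 pair. Of 14 receptors and feedback genes, 8 rose and 2 fell, beside 10.7% and 12% of all tested genes. The list's median was 0.87. Spry4, a sprouty inhibitor induced by FGF signalling, had 7.86, 7.60 and 7.50 in HG and 5.49, 4.37 and 5.95 in bulge, with 1 bulge array at the floor, a rise of 2.38 (SE 0.51, adjusted p = 0.00333). Another probe set of Spry4 past the filter gave 0.31. Dusp6, a phosphatase that dampens the ERK kinases, had 12.32, 12.19 and 12.80 in HG and 10.94, 10.49 and 10.49 in bulge and rose by 1.79. Etv4 and Etv5, the transcription factors at the end of that cascade, rose by 1.83 and 1.02, and Spry1, Spry2, Spred2 and Fgfr2 rose by 0.83 to 1.05. The falls were Fgfr4 (2.43, with 1 HG array at the floor) and Fgfr1 (0.46), and neither was called without the cKO set 1 pair. With all probe sets of a gene averaged 5 of the 8 rises were called, and 4 without the trend in the variance.

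In the epidermal growth factor family 3 of 12 tested genes rose and none fell, beside 10.7% and 12% of all tested genes. Epgn, epigen, an EGF receptor ligand, had 11.24, 12.37 and 9.90 in HG and 8.59, 10.07 and 7.30 in bulge. It was higher in HG within each pair by nearly the same amount, 2.51 on average (SE 0.17, adjusted p = 7.56e-08), although the fractions overlap across pairs. Tgfa, another ligand, rose by 1.33 and the receptor Erbb3 by 0.52. The insulin-like growth factor axis was lower in HG. Of 12 tested, 9 fell and 1 rose (Irs1, 0.67, not called without the cKO set 2 pair), with a median of -1.60. Igfbp6 and Igfbp5, binding proteins of the ligands, had differences of -3.51 and -2.97. Igfbp5 had 9.26, 9.42 and 9.35 in HG and 12.38, 12.67 and 11.88 in bulge on the probe set used. Another probe set of Igfbp5 past the filter gave -0.16, so the size of its fall is uncertain. Igfbp2 fell by 2.36, and the ligand genes Igf1 and Igf2 differed by -1.99 and -1.83. Fibroblasts also express members of this list, and fibroblast markers fell in HG as well, as given with the other cell types.

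Guidance molecules moved in both directions. Of 28 semaphorins, netrins, slits and receptors, 7 rose and 9 fell. Sema3e, a secreted repellent, had 9.34, 9.19 and 9.29 in HG and 13.14, 12.36 and 13.21 in bulge, a difference of -3.62 (SE 0.17, adjusted p = 2.13e-09). Plxna2, a semaphorin co-receptor, fell by 3.33, Ntn1, netrin, by 2.64 and Slit2 by 1.97. With all probe sets of a gene averaged 3 of the 9 falls were called. Of 14 ephrins and Eph receptors none rose and 3 ephrin ligands fell, Efnb2 by 1.31, Efna5 by 1.10 and Efna3 by 0.88; without the Het set 1 pair 2 genes rose, and without the cKO set 1 pair 5 fell. Of 14 Notch genes 2 rose and 3 fell, shares above the 10.7% and 12% of all tested genes but resting on few genes. Hey1, given with the BMP targets, is 1 of the 3 falls. The ligand Jag1 had 12.49, 12.35 and 12.20 in HG and 13.68, 13.33 and 13.63 in bulge, a difference of -1.20, while the ligands Jag2 and Dll1 rose by 0.95 and 1.11, the last 2 not called without the cKO set 1 pair. Of 7 ectodysplasin pathway genes, which act in hair placode formation, Tnfrsf19 and the adaptor Edaradd rose (1.19 for Edaradd) and the ligand Eda fell by 1.14, not called without the cKO set 2 pair.

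Cell division genes were higher in HG under quiescent labels. Of 27 tested mitosis genes, 27 rose, with a median of 1.92, beside 10.7% of all tested genes. Mki67, the proliferation marker, had 12.18, 11.73 and 11.82 in HG and 9.29, 10.08 and 9.59 in bulge, a rise of 2.26 (SE 0.20, adjusted p = 1.53e-06). Ndc80, a kinetochore protein, had 7.68, 7.34 and 8.44 in HG and 4.37, 4.37 and 6.42 in bulge, a rise of 2.77 with 2 bulge arrays at the floor. Kif20a, a mitotic kinesin, rose by 2.51, and the checkpoint kinases Bub1 and Ttk by 2.39 and 2.35. Of 25 DNA replication genes 21 rose and none fell, with a median of 1.05. Mcm5, a subunit of the replicative helicase, had 11.77, 12.05 and 12.08 in HG and 10.11, 10.36 and 9.97 in bulge, a rise of 1.82 (SE 0.15, adjusted p = 9.36e-07). Orc1, of the origin recognition complex, rose by 2.21 with 1 bulge array at the floor, Uhrf1, which couples DNA methylation to replication, by 2.10, and Tk1, thymidine kinase, by 1.83. In each of the 3 conditions the mitosis list had a median between 1.49 and 2.27. Outside the fit without the filter on low signal, which called 1 of the 27 and 2 of the 26 genes, between 19 and 27 mitosis genes and between 17 and 22 replication genes rose under the other settings.

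Of 13 G1 cyclins, their kinases and the E2F and Myc factors, 10 rose and none fell, with a median of 0.96. Among all tested genes 10.7% rose and 12% fell. The 10 include Mycn, whose probe sets gave opposite signs, and 9 rose without it. E2f3, a transcription factor that starts DNA replication genes, had 8.40, 8.48 and 8.65 in HG and 7.05, 6.21 and 6.53 in bulge, a rise of 1.91 (SE 0.32, adjusted p = 5.18e-04). Ccne2, cyclin E2, rose by 1.56, E2f2 by 1.46, Ccnd2 by 1.31, Cdk6 by 1.17 and Ccnd1 by 0.88. Genes of growth arrest were lower or level in HG. Of 14 tested CDK inhibitors and growth arrest genes 6 fell and 1 rose, with a median of -0.37. Cdkn1c and Cdkn1b, which encode the inhibitors p57 and p27, fell by 1.40 and 0.82, and Gas1 by 1.41. The rise was Rbl1, which encodes the pocket protein p107 (0.99). Without the cKO set 2 pair 3 of the 6 falls were called.

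The promoters of these groups are printed because they hold different motifs. The cell cycle homology region (CHR, searched as TTTGAA on both strands) is bound by complexes that switch mitosis genes, and E2F sites (searched as TTTCCCGC or TTTGGCGC on both strands) occur at replication genes. In RefSeq promoters of assembly GRCm38.p6, from 250 bases before to 50 after the gene start, the CHR letters occurred in 17 of 23 mitosis genes with a promoter in the table (73.9%), in 2 of 22 replication genes (9.09%) and in 5466 of 27025 genes in all (20.2%). The E2F letters occurred in 0 of 23 mitosis genes, in 8 of 22 replication genes (36.4%) and in 486 of 27025 genes in all (1.8%). A match is a description of the letters and not a tested site. The genes shown are the 2 largest rises of each list whose promoter holds a match, with the genes of 1 chromosome left out of the choice. A larger rise on that chromosome would therefore not be shown. They are Ndc80 (chr17:71526808-71527107, minus strand), Ttk (chr9:83834439-83834738, plus strand), Mcm5 (chr8:75109259-75109558, plus strand) and Mcm3 (chr1:20820263-20820562, minus strand). Each is written 5′ to 3′ on the gene's strand, with the CHR match of Ndc80 and Ttk and the E2F matches of Mcm5 and Mcm3 in capitals, on either strand.
Ndc80: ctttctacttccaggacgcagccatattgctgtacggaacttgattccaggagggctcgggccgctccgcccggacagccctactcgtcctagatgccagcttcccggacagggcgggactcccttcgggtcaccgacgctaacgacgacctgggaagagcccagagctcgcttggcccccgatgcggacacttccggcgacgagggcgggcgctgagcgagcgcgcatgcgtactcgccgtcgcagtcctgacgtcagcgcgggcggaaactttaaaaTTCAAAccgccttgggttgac
Ttk: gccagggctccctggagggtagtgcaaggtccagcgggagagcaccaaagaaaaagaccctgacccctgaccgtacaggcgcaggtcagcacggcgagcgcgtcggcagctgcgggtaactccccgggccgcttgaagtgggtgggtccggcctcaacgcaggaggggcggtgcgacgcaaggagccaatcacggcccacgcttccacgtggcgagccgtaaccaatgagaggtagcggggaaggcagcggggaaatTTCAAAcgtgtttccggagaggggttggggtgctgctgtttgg
Mcm5: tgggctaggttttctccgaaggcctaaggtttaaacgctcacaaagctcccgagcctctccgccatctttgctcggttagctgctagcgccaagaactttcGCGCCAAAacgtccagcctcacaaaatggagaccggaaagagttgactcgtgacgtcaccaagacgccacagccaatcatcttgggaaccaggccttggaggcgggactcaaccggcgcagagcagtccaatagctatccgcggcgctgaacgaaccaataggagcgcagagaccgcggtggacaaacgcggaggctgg
Mcm3: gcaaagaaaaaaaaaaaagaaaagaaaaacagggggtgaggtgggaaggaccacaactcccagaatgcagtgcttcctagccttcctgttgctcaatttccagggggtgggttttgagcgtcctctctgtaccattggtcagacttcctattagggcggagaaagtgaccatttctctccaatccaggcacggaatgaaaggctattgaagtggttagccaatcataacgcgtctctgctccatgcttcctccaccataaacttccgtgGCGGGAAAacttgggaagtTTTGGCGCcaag
Mcm3, which rose by 1.52, holds 2 matches, and the other promoters hold 1 each.

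**Figure D3:**
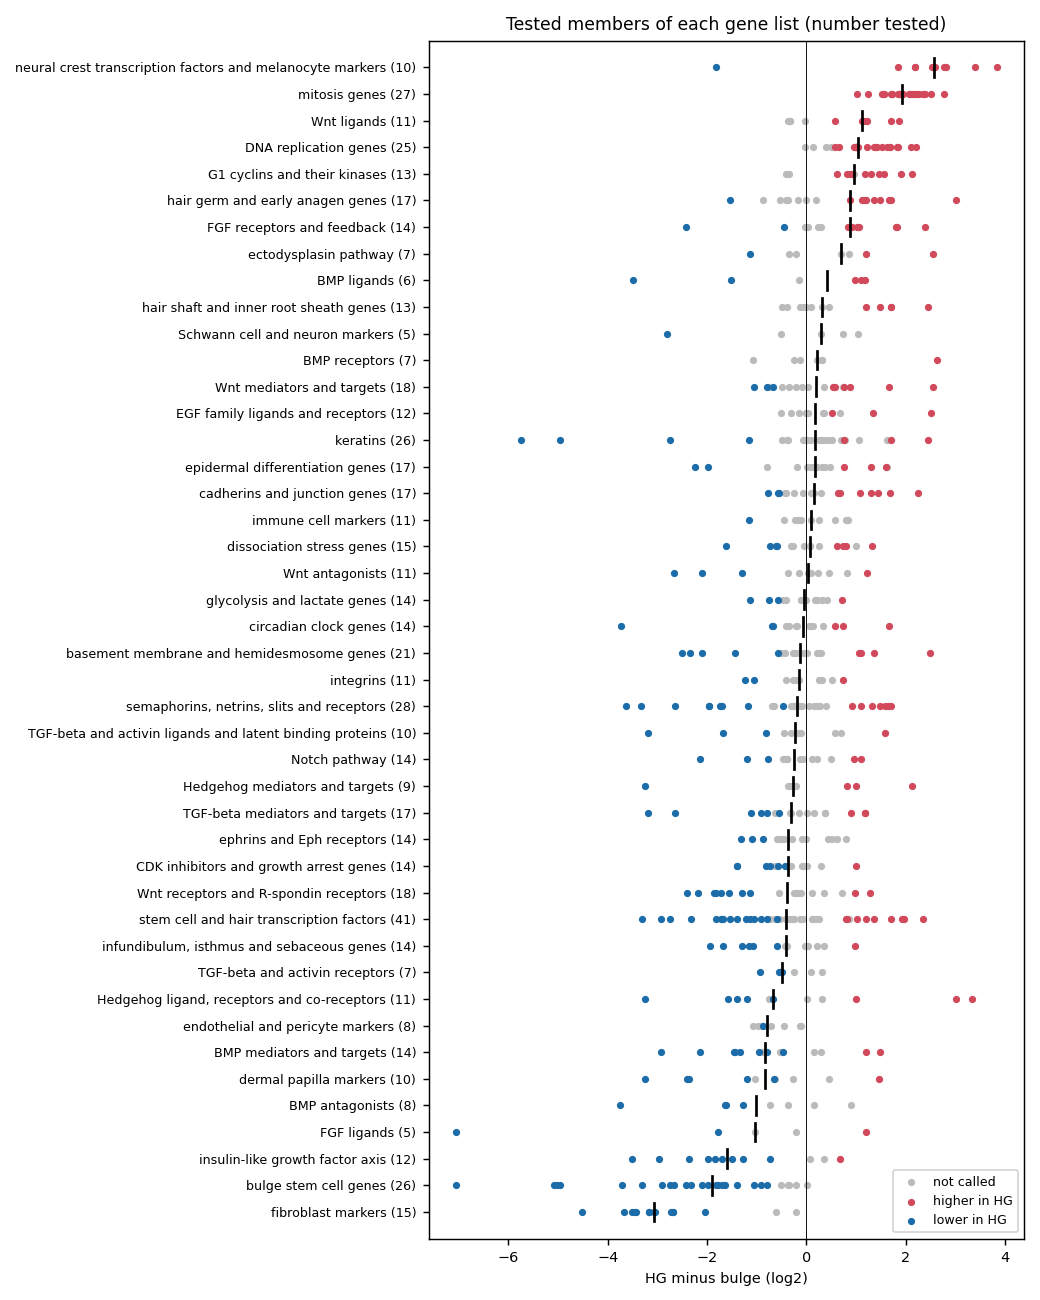
Each row is a gene list with at least 5 tested members (their number in parentheses), each point a tested member placed by its HG minus bulge difference on the log2 axis, and each vertical bar the list median. Red points rose, blue points fell and grey points were not called, and all 27 mitosis genes lie right of 0 while 21 of the 26 bulge genes are blue.

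Basement membrane genes moved in both directions. Of 21 tested, 4 rose and 5 fell, shares above the 10.7% and 12% of all tested genes. Lama1, the laminin alpha 1 chain, had 7.26, 8.67 and 8.68 in HG and 4.84, 6.28 and 6.05 in bulge, a rise of 2.48 (SE 0.38, adjusted p = 2.44e-04), while Lama4, the alpha 4 chain, fell by 2.50 and Lama2, the alpha 2 chain, by 1.44. Nid1, nidogen, fell by 2.11 and Egflam, pikachurin, by 2.34 with 2 HG arrays at the floor. Npnt, nephronectin, rose by 1.36. Of 11 integrins Itga6, the alpha 6 chain of basal epithelial cells, rose by 0.73, and Itgb8 and Itgb5, partners of the alpha V chain, fell by 1.23 and 1.06. The integrin counts rest on few genes and stand beside 10.7% and 12% of all tested genes, and without the Het set 1 pair 2 integrins rose. Of 17 cadherin and junction genes 7 rose and 3 fell. The connexins Gjb6, Gjb2 and Gja1 rose by 2.25, 1.45 and 1.07 and the desmogleins Dsg2 and Dsg1a by 1.68 and 1.29. Dsg2 had 12.71, 13.25 and 12.94 in HG and 10.88, 11.70 and 11.27 in bulge, without overlap. Jup, Cdh13 and Epcam fell by 0.76, 0.57 and 0.55.

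Keratins were called about as often as other genes. Of 26 tested, 3 rose and 4 fell, shares near the 10.7% and 12% of all tested genes. Krt5 and Krt14, the keratins of basal epithelial cells, differed by -0.02 and 0.51 without a call. Krt75, a companion layer keratin, fell by 2.76 with 2 HG arrays at the floor, and Krt80 by 1.15. Krt35, a keratin of the growing hair shaft, had 8.33, 7.25 and 9.55 in HG and 5.63, 4.37 and 7.81 in bulge, a rise of 2.44 (SE 0.38, adjusted p = 2.46e-04), and Krt28, of the inner root sheath, rose by 1.71. For both keratins the cKO set 2 arrays were the highest of their fraction. Of 13 hair shaft and inner root sheath genes 5 rose and none fell, and the mean log2 signal of the list was 7.25, 6.92 and 8.61 in HG and 6.75, 6.16 and 7.99 in bulge. Of 17 epidermal differentiation genes Tgm3, Dsg1a and Krt1 rose (1.60, 1.29 and 0.76) and Calml3 and Sbsn fell (2.24 and 1.97). Without the cKO set 1 pair 5 rose. Of 14 infundibulum, isthmus and sebaceous genes 6 fell and 1 rose (Lgr6). Pparg, the regulator of sebaceous lipid synthesis, fell by 1.93, and the lipid genes Fa2h, Elovl3 and Scd1 by 1.30, 1.16 and 1.08.

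Markers of other cell types moved with the fractions. Of 15 tested fibroblast markers 13 fell and none rose, beside 12% and 10.7% of all tested genes. The list's median was -3.07. The summed signal of these markers ran from 20679 to 31328 in HG and from 179450 to 330930 in bulge. Col1a2, a collagen I chain, had 12.27, 13.09 and 12.18 in HG and 15.43, 16.31 and 15.30 in bulge, a difference of -3.17 (SE 0.16, adjusted p = 7.02e-09), and Dcn, decorin, had 12.48, 12.81 and 12.61 against 15.53, 16.21 and 15.63. Both were lower on every HG array than on any bulge array. Lum, Dpt, Col1a1 and Col6a1 had differences of -4.52, -3.52, -3.67 and -3.44. The part of these cells in the falls of the bulge, Hedgehog, TGF-beta, insulin-like growth factor, guidance and matrix genes was not tested.

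Melanocyte markers moved the other way. Of 10 tested neural crest and melanocyte genes 9 rose and 1 fell, beside 10.7% and 12% of all tested genes. The list's median was 2.56, and its summed signal was 18470 to 22034 in HG and 7944 to 9667.5 in bulge. Tyrp1, a pigment enzyme, had 11.72, 11.61 and 12.09 in HG and 8.69, 7.36 and 7.84 in bulge (difference 3.84, SE 0.22, adjusted p = 2.01e-08). Dct, which acts beside it, had 13.43, 13.08 and 13.46 in HG and 10.10, 9.79 and 9.92 in bulge. Pmel and Tyr rose by 2.81 and 2.77, and Sox10, the neural crest regulator, by 2.18. Mitf, the regulator of pigment genes, went against the list and fell by 1.83, with 10.82, 11.01 and 10.75 in HG and 12.79, 12.74 and 12.53 in bulge. With all probe sets of a gene averaged 5 of the 9 rises were called. The part of melanocytes in the rises of other genes was not tested.

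Of 10 tested dermal papilla markers, 5 fell, 1 rose and 4 were not called, beside 12% and 10.7% of all tested genes. The list's summed signal was 2530 to 2926 in HG and 3069 to 5711 in bulge. Vcan, versican, fell by 2.40 with 1 HG array at the floor, and the differences were -2.36 for Rspo1, an R-spondin, -1.19 for Lepr, the leptin receptor, and -0.65 for Crabp1. The remaining fall was Hhip (-3.25), given with the Hedgehog pathway. Rspo3, a Wnt-enhancing R-spondin, rose by 1.46, and Sox2, Corin and Fgf10 were below the filter on low signal. Of 11 immune markers Lyz2 fell by 1.16 and none rose, with summed signals of 12185 to 15614 in HG and 7400 to 22895 in bulge, and without the Het set 1 pair 4 rose and without the cKO set 2 pair 3 fell. Of 8 endothelial and pericyte markers Myh11 fell by 0.88, not called without the cKO set 1 pair, with summed signals of 3344 to 4879 in HG and 3273 to 7035 in bulge. Of 5 Schwann cell and neuron markers Pmp22, which fibroblasts also express, fell by 2.80, and 2 others rose without the Het set 1 pair, with summed signals of 3189 to 3544 in HG and 9951 to 11960 in bulge. None of 3 tested Merkel cell markers or the 1 tested muscle and erythroid marker (Des) was called, with summed signals of 457 to 588 and 323 to 343 in HG and of 352 to 540 and 186 to 557 in bulge. The part of these cell types in the other results was not tested.

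Genes that respond to tissue dissociation moved in both directions. Of 15 tested, 4 rose and 4 fell, shares above the 10.7% and 12% of all tested genes. Their median was 0.06, with summed signals of 80920 to 111520 in HG and 85293 to 111230 in bulge. Nr4a1, an early response receptor, rose by 1.32, and Fos, Junb and Egr1 rose by 0.74, 0.79 and 0.62, while Ier3 fell by 1.62. Without the cKO set 2 pair 2 of the rises and 1 of the falls were called. Of 14 circadian clock genes 3 rose and 3 fell, beside the same 10.7% and 12% of all tested genes. Nfil3, a clock output repressor, had 8.07, 7.74 and 8.54 in HG and 11.91, 11.55 and 12.12 in bulge, a difference of -3.74 (SE 0.16, adjusted p = 1.34e-09), and Nr1d1, which encodes REV-ERB alpha, rose by 1.67. None of the 3 rises was called without the cKO set 1 pair or without the cKO set 2 pair. Of 14 glycolysis and lactate genes 3 fell (Slc16a1, Aldoc and Ldhb, by 1.14, 0.75 and 0.57) and Pgk1 rose by 0.72. Among all tested genes 12% fell and 10.7% rose. Without the Het set 1 pair 2 genes of this list rose.

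The HG and bulge arrays of Het set 2, labelled activated, were set beside the quiescent pairs by testing whether the HG minus bulge difference was the same there. Of 12589 genes tested, the difference was higher in the activated pair for 387 (3.07%) and lower for 661 (5.25%), 1048 in all (8.32%), and 512 of these were also called between HG and bulge in the quiescent pairs. In this fit, with the trend in the variance and the filter on low signal, 2850 genes had an unadjusted p under 0.05 (limma). The activated arm is 1 pair of arrays, assumed to vary like the others. Without the trend or without the filter no gene was called in either direction. Most of the quiescent differences had the same sign in the activated pair, which held for 2455 of the 2807 called genes (87.5%) and for 70.3% of all tested genes.

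Hair shaft genes differed more in the activated pair. The list's median difference was 4.55 in the activated pair and between 0.74 and 0.80 in the quiescent pairs. By the interaction test 10 of 14 tested members were higher, beside 3.07% of all tested genes. Krt35 was 13.75 in activated HG and 7.13 in activated bulge. The hair keratin-associated genes Krtap8-1, Krtap11-1 and Krtap7-1, with Krt33a, Aldh1a3 and Kif26a, had the 6 largest gaps upward, from 5.54 to 8.04. Krtap7-1, Krt33a, Aldh1a3 and Kif26a were below the filter in the quiescent comparison. They passed it here only through their high activated HG values, so their gaps come in part from that selection. Krt33a is among the 10 hair shaft genes counted above. Shh was 12.49 in activated HG and 4.71 in activated bulge, so its difference there was wider by 4.77 (SE 0.79, adjusted p = 0.00296), and Lef1, at 12.14 and 7.33, was wider by 3.15. Mitosis genes had a median difference of 3.02 in the activated pair, with 5 of 27 higher by the interaction test, and replication genes of 1.91. The BMP mediators and targets had a median of 0.18 in the activated pair against -1.23 to -0.66 in the quiescent pairs, with 4 of 14 higher. Bambi was 11.43 in activated HG and 9.56 in activated bulge, against lower HG values in all 3 quiescent pairs.

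In the other direction, 11 of 15 dissociation stress genes and 9 of 14 clock genes were lower in the activated pair. The lists' median differences there were -2.29 and -1.55, and 5.25% of all tested genes were lower. The activated bulge array had a mean log2 signal of 13.08 over the stress list and the activated HG array 10.69, while the 6 quiescent arrays lay between 11.27 and 11.94. Fosb and Dusp1 had the interaction values -5.64 and -4.38, and Noxo1, Nr1d1, Ptgs2 and Rhbdd3 lay between -4.52 and -4.15. The part of the stress response in the other interaction values was not tested. Of 27 bulge stem cell genes 11 were lower in the activated pair and 2 higher, and the list's median difference was -2.64. The 2 include Aldh1a3, which was below the filter in the quiescent comparison. Nfatc1 was 7.17 in activated HG, below its 3 quiescent HG values, and 11.95 in activated bulge.

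**Figure D4:**
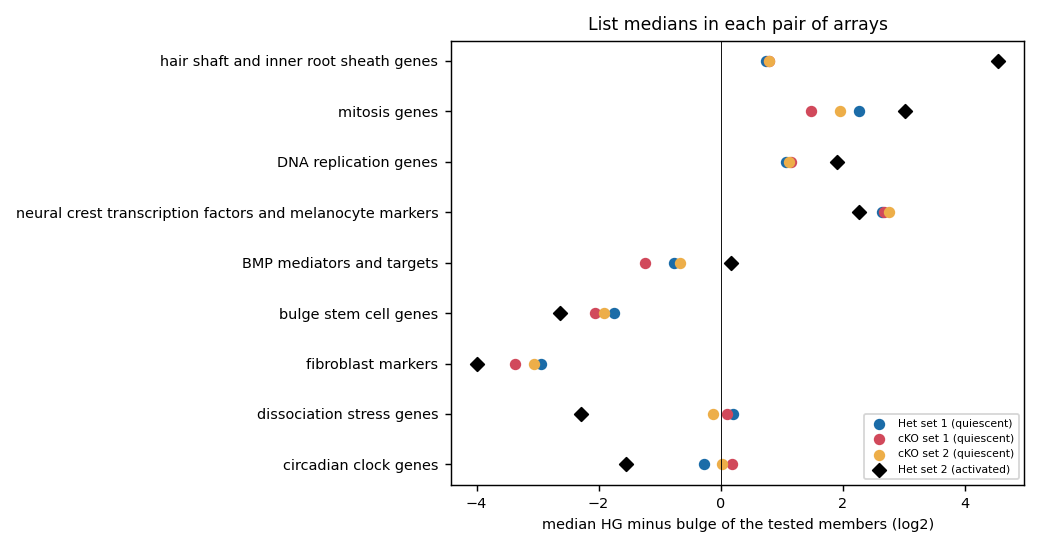
The horizontal axis is the median HG minus bulge difference (log2) of the tested members of each list, with circles for the 3 quiescent pairs and a black diamond for the activated Het set 2 pair. The diamond lies at 4.55 for hair shaft genes and at -2.29 for stress genes, away from the circles. For bulge genes it lies at -2.64, below the circles, which run from -2.06 to -1.75.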

How the data were processed

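The deposited values are MAS5 signal intensities on a linear scale, 1 column per array, made with MAS5 per the submitters' processing notes, which name no version. Per the labels' protocols, RNA was taken in Trizol and 2 µg of it was made into biotin-labelled cRNA. In the deposited table each array has a mean of 500 after trimming 2% at each end, which was checked on all 12 arrays, and no normalization was added. Detection calls were not used here.

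The array carries 45101 probe sets, of which 64 are controls and were not used. The annotation gave 1 gene symbol to 34945 of the rest, several to 932 and none to 9160. Each of 18193 genes was represented by its brightest probe set (mean log2 over 12 arrays) among those with 1 symbol. Signals under the pooled 25th percentile (20.7) were set to it before log2, and a gene was tested if at least 2 arrays of a fit exceeded the pooled median (84.7). HG and bulge were compared with limma 3.58.1 under R 4.3.3 (a two-sided moderated test, eBayes with trend, Benjamini-Hochberg, threshold 0.05), with genotype and set together as a block on 6 arrays. The activated pair was compared through an interaction term on 8 arrays. On simulated data with 12392 genes, 100 were changed 2-fold and 100 were changed 4-fold. The first fit recovered 20% of the 2-fold and 58% of the 4-fold changes. A far larger share of genes was called in the real arrays (22.7%), so these rates need not hold there. Precision is set by how few arrays there were. Of 72 named genes with 2 or more probe sets past the filter, 5 had differences of both signs (Mycn, Krt8, Mbp, H2-Ab1 and H2-Aa). Only for Mycn did both exceed 0.5 on the log2 scale, and the other 4 were not called. Probe sets of the same sign could still differ widely in size, as for Igfbp5 (-2.97 and -0.16).

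The fractions, conditions and 47 gene lists (671 genes, of which 641 were measured and 562 tested) were chosen with earlier results of these data known. Genes were named by a rule: the sort markers and Tgfbr2, the 12 largest rises and 12 largest falls with the same sign in all 3 pairs (sort markers left out), up to 4 members of each list with the largest differences, members that a count needs, the 2 brightest markers of other cell types, and the 6 largest interaction values in each direction. Other list members in the text, among them Mki67, Axin2, Krt5, Krt14, Ccnd1 and the Id, Sox and Irx genes, were chosen after their values were seen. The alternatives were quantile normalization, other floors and filters, the mean of all probe sets, eBayes without trend, a 2-fold minimum, 8 arrays, no block, and leaving out each pair. Promoters came from RefSeq, assembly GRCm38.p6, and motifs were searched on both strands.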

Additional observations from a re-analysis of the deposited data

Results flagged for a closer look

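Of the 185 genes named by the rule, 58 had an HG minus bulge difference in the activated Het set 2 pair that was not the same as in the 3 quiescent pairs (limma interaction term, adjusted p under 0.05), 30 of them higher and 28 lower. The values are the difference in the activated pair minus that in the quiescent pairs, on the log2 scale. The activated arm is 1 pair of arrays, and without the trend in the variance or without the filter on low signal none of the interaction calls was made.

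The higher values in hair shaft and follicle layer genes were 8.04 for Krtap8-1, 6.73 for Krtap11-1, 5.94 for Krtap7-1, 5.54 for Krt33a, 4.18 for Krt35, 4.01 for Krt75, 3.59 for Krt28, 2.46 for Tgm3 and 1.19 for Krt6a. Krtap8-1, Krtap11-1 and Tgm3 stood at the floor in activated bulge, so their differences in that pair are lower bounds. Genes of signalling followed with 4.77 for Shh, 3.15 for Lef1, 3.15 for Bambi, 3.08 for Msx2, 3.12 for Dlx2, 2.95 for Wnt5a, 1.73 for Fzd1, 1.33 for Ptch1 and 1.51 for Mycn. Bambi, Dlx2, Ntn1, Krt75 and Mgst1 were lower in HG in the quiescent pairs and higher in HG in the activated pair. Ntn1 had the interaction value 3.16, and its HG minus bulge difference in the activated pair was 0.53. Aldh1a3, which makes retinoic acid, had 6.71 and Kif26a 6.09, both at the floor in activated bulge and below the filter in the quiescent comparison. Krtap7-1 and Krt33a were below that filter too. The rest were Plxna2 (2.54), Gjb2 (2.62), Gjb6 (2.53), Cldn10 (2.10), Mgst1 (1.95), Ccne2 (1.65), Nfil3 (1.45), Dcn (2.63) and Acta2 (1.09).

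The lower values in early response and clock genes were -5.64 for Fosb, -4.38 for Dusp1, -4.20 for Ptgs2, -3.83 for Fos, -3.68 for Nr4a1, -2.53 for Junb, -4.29 for Nr1d1 and -1.26 for Per1. Ptgs2 stood at the floor in activated HG. Over the stress list the activated bulge array had a mean log2 signal of 13.08, above the 6 quiescent arrays, and the activated HG array 10.69, below them. Bulge genes and other falls widened in the activated pair, with -2.44 for Krt24, -2.04 for Nfatc1, -1.89 for Gfra1, -1.87 for Dkk3, -1.71 for Pdzrn4, -1.63 for Gas1, -1.54 for Wfdc3, -1.25 for Angptl7 and -1.08 for Cd34. The latent TGF-beta binding proteins Ltbp1 and Ltbp2 gave -1.74 and -1.39, and Ccn2 -1.87. The others were Noxo1 (-4.52), Rhbdd3 (-4.15), Mbp (-2.67), Epgn (-2.27), Efna3 (-2.05), Col6a1 (-1.34), Slc38a4 (-1.34) and Itga6 (-1.30). The part of the stress response in these values was not tested.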

How the results depend on the processing

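The 1325 risen and 1482 fallen genes were 652 and 938 without the trend in the variance, 43 and 103 without the filter on low signal, and 599 and 869 with a 2-fold minimum. With all probe sets of a gene averaged 881 rose. Leaving out each pair in turn gave 857 to 1216 risen and 1076 to 1289 fallen genes. The genes with a higher or a lower difference in the activated pair, 387 and 661, were 0 and 0 without the trend, 0 and 0 without the filter, 181 and 289 with the floor at the pooled median, and 115 and 310 with probe sets averaged. Leaving out each quiescent pair gave 201 to 629 higher and 476 to 992 lower. The cause of these shifts was not tested.

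The deviations of the HG and bulge arrays of a condition from their fraction means correlated at 0.14 for cKO set 1 and 0.23 for cKO set 2 but at 0.029, near 0, for Het set 1, whose bulge array correlated more with the HG array of cKO set 1 (0.068). Without the replicate block 955 genes rose and 1153 fell, and 2106 of these 2108 calls were among the 2807 with the same sign.

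Of 166 named genes called between HG and bulge, 1 changed direction under an alternative, Fos, with -0.22 on all 8 arrays. Between 143 and 156 were called with each pair left out, 137 without the trend and 33 without the filter. Genes that were not called and changed sign were Dusp1 (-1.02), Fosb (-0.41), Rhbdd3 (-0.84), Mbp (-0.38), H2-Ab1 (-0.19) and Acta2 (0.16) on all 8 arrays, Mbp (-0.15) and H2-Ab1 (-0.13) with probe sets averaged, Acta2 (0.040), Des (0.30), Dusp1 (-0.017) and H2-Aa (0.11) without the Het set 1 pair, H2-Aa (0.22) without the cKO set 1 pair, and H2-Ab1 (-0.43) without the cKO set 2 pair. Of 94 list counts, 1 to 26 moved by over 1.5 times under each alternative apart from the fit without the filter, which moved 71. With 3 arrays per fraction, small differences at low signal cannot be told from spread.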
